A study of Homo sapiens with 4 samples.

Results

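Collagen chain genes encode the polypeptides from which collagens, the main structural proteins of the extracellular matrix, are assembled. They were taken here as the genes whose symbol in the authors' table of normalized values consists of COL, a number, A and a number, without COL7A1 and COL17A1. This gave 42 genes among the 63856 genes of the count table, of which 11 encode chains of fibrillar collagens, 8 encode chains of basement membrane collagens and 23 encode chains of other collagens. The RNA-seq data came from MCF10A, a breast epithelial cell line of non-tumorigenic origin, with 2 libraries of wild-type (WT) cells and 2 libraries of cells overexpressing HSF1 (HSF1-pLVX). HSF1 is the main transcription factor of the heat shock response. The HSF1-pLVX cells had been transduced with a lentivirus carrying the human HSF1 coding sequence in the pLVX vector and selected with puromycin. Both variants were grown in the same medium with horse serum, insulin, hydrocortisone and EGF. Libraries of cells with the empty vector were not analysed here, so effects of HSF1 and those of the vector, puromycin or separate growth cannot be told apart. The study calls its replicates biological, but the labels do not describe the cultures behind them. The p-values therefore measure only the spread between these libraries, taken from genes of similar level and not from each gene alone.

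Collagens are trimers of chains wound around each other. Fibrillar collagens form the banded fibers of connective tissue and are mostly products of fibroblasts, osteoblasts and chondrocytes, while epithelial cells lay down the type IV collagen network of the basement membrane on which they rest. The remaining families decorate fibrils, form beaded filaments or short-chain networks, or span the cell membrane.

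The libraries held 19510275 and 18688109 counts in WT cells and 24184285 and 19851092 counts in HSF1-pLVX cells. HSF1 (ENSG00000185122.10, chr8:144291591-144314722 of hg38) was at 195 ± 7.94 CPM in WT cells and 991 ± 11.5 CPM after overexpression (mean ± SD, n = 2 each), where CPM are counts divided by the TMM-adjusted library total, on a scale shared by all libraries. The HSF1 log2 fold change of 2.35 (SE 0.148) had an adjusted p of 5.77e-55 by the quasi-likelihood test of edgeR, adjusted over all tested genes by the Benjamini-Hochberg method, and the counts do not separate the introduced transcript from the endogenous one. All 10 epithelial markers examined passed the filter on low counts, with summed levels of 17950 and 17697 CPM in the WT libraries and 8967 and 9580 CPM in the HSF1-pLVX libraries. Of these markers, KRT5 and TP63 rose and 7 fell at an adjusted p of 0.05 in that test. The shares among all tested genes were 32.5% higher and 32.7% lower. Leukocyte markers summed to 2.77 and 1.67 CPM in WT cells and to 62.8 and 90.4 CPM in HSF1-pLVX cells, through CD14 and LAPTM5, while PTPRC, which marks all leukocytes, had 0 counts in every library. The part of these marker changes in the results below was not tested.

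Of the 42 collagen chain genes, 22 passed the filter on low counts and were tested, and 20 did not pass it. At an adjusted p of 0.05, 9 collagen chain genes were higher and 9 were lower in HSF1-pLVX cells, against 32.5% higher and 32.7% lower among all 15830 tested genes. At least 2-fold higher were 5 of the 22 (background 14.9%) and at least 2-fold lower were 7 (background 14%). Of these, COL2A1 and COL5A3 had few WT counts, and COL4A4, COL5A1, COL13A1 and COL28A1 had few HSF1-pLVX counts. With 10 counts required in every library, 16 collagen chain genes were tested, of which 3 rose and 3 fell by that much. Under the same requirement and limits, 1729 of 13868 tested genes rose and 1597 fell. The WT and HSF1-pLVX libraries did not overlap in 20 of the 22 genes, with 9 higher and 11 lower in HSF1-pLVX cells. Among all tested genes 83.1% did not overlap, 42.1% higher and 41% lower. The median log2 fold change was -0.15 over these 22 and 0.02 over all tested genes. As many collagen chain genes rose as fell, and the changes are described by collagen class. Because these are bulk libraries, fewer cells making a chain and less RNA of it per cell cannot be told apart.

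**Figure D1:**
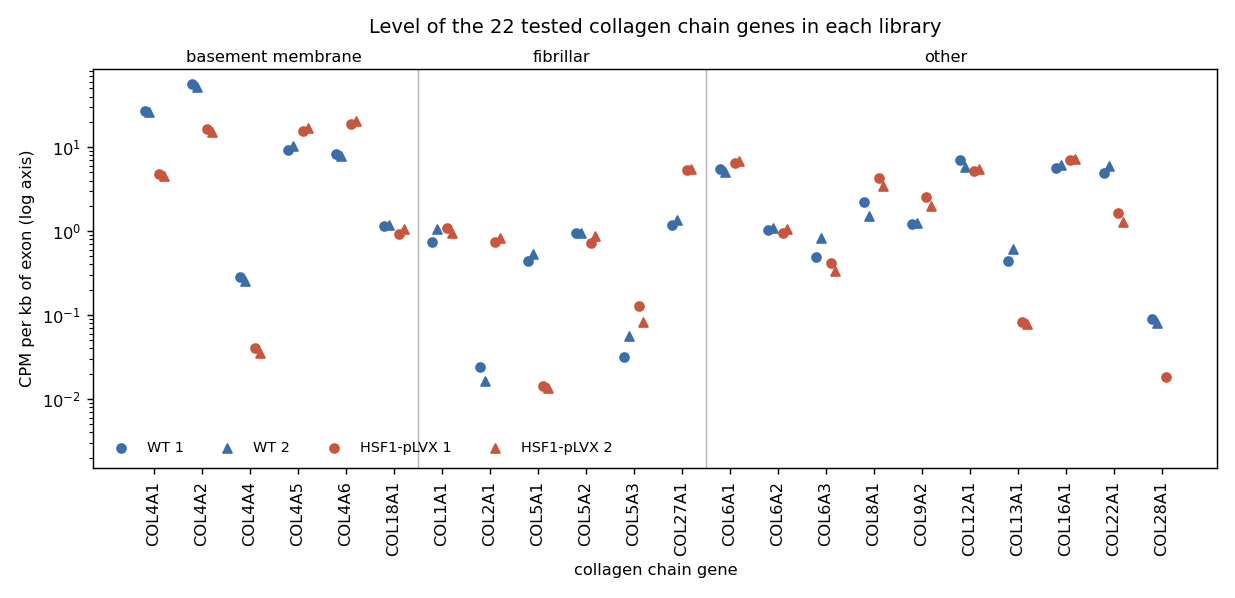
Level of each of the 22 tested collagen chain genes in each of the 4 libraries, in CPM per kb of exon on a log axis, grouped by collagen class (blue, WT; red, HSF1-pLVX; circles, replicate 1; triangles, replicate 2). COL4A2 is the highest gene in WT cells at 53.9 CPM per kb, the COL4A6 points of HSF1-pLVX cells lie above those of WT cells, and COL28A1 has no point for HSF1-pLVX replicate 2 because it held 0 counts there.

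Type IV collagen, the network collagen of basement membranes, held the most abundant transcripts of the 42 genes and was split by chain. COL4A1 and COL4A2, which form the trimer found in most basement membranes, fell to 0.175 and 0.294 of the WT level, while COL4A5 and COL4A6, which join in the basement membranes of certain epithelia, rose 1.67-fold and 2.44-fold. COL4A4, which pairs with COL4A3 and COL4A5 in the basement membranes of kidney and lung, also fell. Among the 8 genes of the basement membrane class, 6 were tested, of which 2 rose, 3 fell and 1 was not called. Over all tested genes 32.5% rose and 32.7% fell.

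The type IV genes are arranged in head-to-head pairs whose start sites face away from each other across a short shared promoter. Part of the sequence between these start sites is shown because the values of both members of each pair differed in the same direction between the variants. The stretches, 100, 170 and 250 bases long, are taken from RefSeq promoter windows on GRCh38.p14, trimmed to bases outside annotated exons and written on the plus strand, so motifs in the rest of each interval are not seen in them. Capitals mark the CCAAT box (CCAAT, or ATTGG on the other strand), the GC box (GGGCGG, or CCGCCC) and the heat shock element of 2 units, GAANNTTC.
COL4A1 and COL4A2, chr13:110307158-110307257: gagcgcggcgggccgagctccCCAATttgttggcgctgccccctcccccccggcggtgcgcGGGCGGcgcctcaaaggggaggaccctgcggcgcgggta
COL4A4 and COL4A3, chr2:227164454-227164623: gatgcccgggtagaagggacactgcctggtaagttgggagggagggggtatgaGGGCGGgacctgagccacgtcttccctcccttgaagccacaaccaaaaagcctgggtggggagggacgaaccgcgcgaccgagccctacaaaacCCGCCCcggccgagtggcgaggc
COL4A6 and COL4A5, chrX:108439588-108439837: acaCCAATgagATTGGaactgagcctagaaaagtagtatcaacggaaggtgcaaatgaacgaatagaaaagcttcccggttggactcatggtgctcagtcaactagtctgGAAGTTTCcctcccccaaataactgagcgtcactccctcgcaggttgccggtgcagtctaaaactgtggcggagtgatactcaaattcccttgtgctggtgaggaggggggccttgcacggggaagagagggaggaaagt

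The RefSeq start sites are 126 bases apart in the COL4A1 and COL4A2 pair and 418 in the COL4A4 and COL4A3 pair. In the COL4A6 and COL4A5 pair they are 379 apart, taking the outermost of the COL4A6 start sites. The gene coordinates given below follow the annotation used for counting and put the gene ends elsewhere. The stretches differ in composition, with a GC content of 78%, 65.9% and 51.2% in that order. The stretch shown for COL4A1 and COL4A2 holds a CCAAT and a GC box, that for COL4A4 and COL4A3 holds GC boxes, and that for COL4A6 and COL4A5 holds CCAAT boxes with 1 GAANNTTC site. A further CCAAT box in the COL4A6 window lies outside the stretch shown. RefSeq windows of 300 bases (250 before and 50 after the start site) were present for 30 of the 42 genes. GAANNTTC was found on either strand in the windows of COL4A5, COL4A6, COL10A1 and COL28A1, with COL4A5 and COL4A6 sharing the same site, and in 6.77% of 35116 windows of all genes. TTCNNGAA, the same element in the opposite arrangement, was in 7.74% of all windows, and GAANNTTCNNGAA, which has 3 units and contains both shorter forms, was in 0.49%. No window of the 30 collagen chain genes held either of them. CCAAT was in the windows of 11 members and 34.6% of all windows, and GGGCGG was in those of 20 members and 45.0% of all windows. Some genes have several windows, and a member was counted if any of its windows held the motif. Member counts and shares of single windows are therefore unlike measures. A match is a run of letters in the window and says nothing about binding of a factor.

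COL4A1 (ENSG00000187498.14, chr13:110148963-110307149) had 222.8 and 215.1 CPM in WT cells and 39.4 and 37.2 CPM in HSF1-pLVX cells. COL4A2 (ENSG00000134871.17, chr13:110305812-110513027) had 486.3 and 453 CPM in WT cells and 143.9 and 132.1 CPM in HSF1-pLVX cells. Both HSF1-pLVX libraries were below both WT libraries for both genes, by far more than replicates differed. The log2 fold change was -2.51 for COL4A1 (SE 0.115, adjusted p = 4.37e-103, quasi-likelihood test of edgeR) and -1.77 for COL4A2 (SE 0.126, adjusted p = 6.90e-43). Leaving out any 1 library kept the fold change between -2.56 and -2.46 for COL4A1 and between -1.83 and -1.69 for COL4A2.

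COL4A5 (ENSG00000188153.12, chrX:108439844-108697545) had 81.7 and 89.9 CPM in WT cells and 137.2 and 149.6 CPM in HSF1-pLVX cells. COL4A6 (ENSG00000197565.15, chrX:108155607-108439497) had 76.8 and 73.7 CPM in WT cells and 176.1 and 191.3 CPM in HSF1-pLVX cells. For both genes each HSF1-pLVX library was above each WT library. COL4A5 rose by a log2 fold change of 0.74 (SE 0.107, adjusted p = 1.85e-11 in the quasi-likelihood test of edgeR) and COL4A6 by 1.29 (SE 0.110, adjusted p = 1.63e-30). Leaving out libraries moved these values to between 0.69 and 0.81 and to between 1.23 and 1.35.

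COL4A4 (ENSG00000081052.11, chr2:227002711-227164113) was low throughout, with 52 and 47 counts in WT cells and 10 and 7 counts in HSF1-pLVX cells. It fell by 2.80 on the log2 scale (SE 0.397, adjusted p = 8.69e-12, quasi-likelihood test of edgeR). Its neighbor COL4A3 (ENSG00000169031.18, chr2:227164565-227314792) had 8 and 17 counts in WT cells and 4 and 3 counts in HSF1-pLVX cells, which was too few for the filter. After scaling to library totals, the summed WT counts of COL4A3 were 4.30 times those of HSF1-pLVX cells (exact 95% interval 1.81 to 11.8). Such intervals, here and below, cover counting error only and not the spread between cultures.

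The remaining genes of this class encode the multiplexins, basement membrane collagens whose C-terminal ends release endostatin and related fragments. COL18A1 (ENSG00000182871.14, chr21:45405137-45513720) was at 9.75 and 9.96 CPM in WT cells and 7.93 and 8.91 CPM in HSF1-pLVX cells. The groups did not overlap, but the log2 fold change of -0.23 (SE 0.166) did not pass the test (adjusted p = 0.216, quasi-likelihood test of edgeR). Exons of COL18A1 share 1401 bases, 16.4% of their length, with SLC19A1 on the opposite strand. SLC19A1 had 203 and 154 counts in WT cells and 476 and 372 counts in HSF1-pLVX cells, and because the strand setting of the counting is not given in the sources used here, reads of the 2 genes may be mixed. COL15A1 (chr9:98943179-99070792) had 9 and 5 counts in WT cells and 1 and 0 counts in HSF1-pLVX cells and was not tested.

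The balance between type IV chains was compared per exon length, which allows levels of different genes to be set side by side. COL4A1 was at 0.487 and 0.505 of the COL4A2 level in the WT libraries and at 0.291 and 0.299 in the HSF1-pLVX libraries. COL4A5 was at 1.129 and 1.296 of the COL4A6 level in WT cells and at 0.828 and 0.831 in HSF1-pLVX cells. The largest shift was between the pairs. COL4A5 and COL4A6 together were at 0.212 and 0.233 of the sum of COL4A1 and COL4A2 in WT cells and at 1.62 and 1.91 in HSF1-pLVX cells. None of these ratios overlapped between the variants, although the smallest p that an exact permutation test allows with 2 libraries in each group is 0.333.

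**Figure D2:**
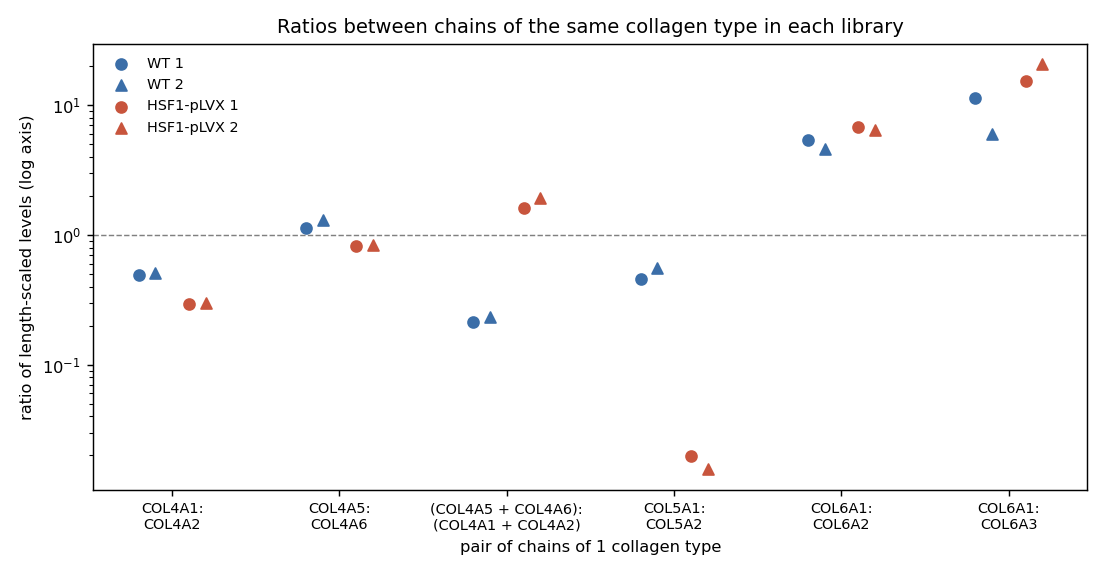
Ratios of length-scaled levels between chains of 1 collagen type in each library, on a log axis with a dashed line at equal levels (blue, WT; red, HSF1-pLVX; circles, replicate 1; triangles, replicate 2). The ratio of COL4A5 and COL4A6 to COL4A1 and COL4A2 goes from 0.212 and 0.233 in WT cells to 1.62 and 1.91 in HSF1-pLVX cells, and that of COL5A1 to COL5A2 falls from 0.461 and 0.554 to 0.0197 and 0.0156.

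Taken as shares of the summed length-scaled level of all 42 genes, COL4A2 made up 41.6% and 39.9% in WT cells and 17.6% and 16.0% in HSF1-pLVX cells. COL4A6 went from 6.16% and 6.09% to 20.2% and 21.8%, which made it the most abundant transcript of the 42 in HSF1-pLVX cells. COL4A5 was next to COL4A2 there at 16.7% and 18.1%. Basement membrane chains held 76.1% and 75.3% of the total in WT cells and 60.8% and 61.8% in HSF1-pLVX cells. Fibrillar chains went from 2.52% and 3.06% to 8.63% and 8.70%. Most of this rise was COL27A1, which went from 0.88% and 1.05% to 5.75% and 5.82%. The total itself was 134 and 130.4 CPM per kb in WT cells and 93.8 and 94.7 CPM per kb in HSF1-pLVX cells, lower in both HSF1-pLVX libraries. This total leaves out COL17A1, a hemidesmosome collagen that went from 201 ± 8.65 to 322 ± 31.4 CPM per kb (mean ± SD, n = 2 each). It also leaves out COL7A1, the anchoring fibril collagen, at 7.31 ± 1.0 and 25.3 ± 3.21 CPM per kb, so a sum that included both would be higher in HSF1-pLVX cells.

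**Figure D3:**
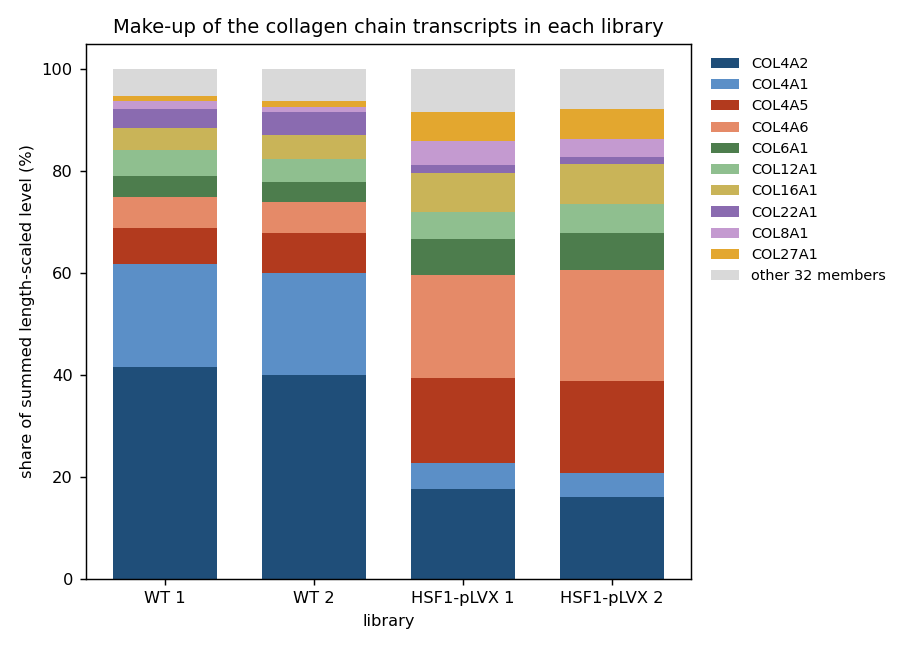
Make-up of collagen chain transcripts in each library, as the percent of the summed length-scaled level of the 42 genes held by the 10 genes shown and by the other 32 together. COL4A2 and COL4A1 fill 41.6% and 20.3% of the bar of WT replicate 1 and 17.6% and 5.13% of that of HSF1-pLVX replicate 1, where COL4A6 fills 20.2%.

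Among the fibrillar chains, 6 of 11 were tested, of which 3 rose, all at least 2-fold, and 1 fell at least 2-fold. Of these, COL2A1 and COL5A3 had few WT counts and COL5A1 had few HSF1-pLVX counts. They passed the filter only through the variant where they were higher. Over all tested genes 32.5% rose (14.9% at least 2-fold) and 32.7% fell (14% at least 2-fold). The median log2 fold change of the fibrillar chains was 0.74. This median of 6 genes lay between 0.46 (without WT replicate 1) and 1.11 (without WT replicate 2) when 1 library was left out, and it was 0.48 without HSF1-pLVX replicate 1. COL27A1, a fibrillar chain known from cartilage and other tissues, rose 4.29-fold, and COL2A1, the chain of the main cartilage collagen, rose from a few counts to a low level. COL5A1, whose chain helps to start collagen fibrils, fell from a low level to a few counts. COL1A1 and COL5A2 were not called.

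The 250 bases before the RefSeq start sites of COL27A1 and COL5A1 are shown, since these genes had the most counts among the fibrillar genes that rose and that fell. The sequences are on the plus strand of GRCh38.p14, with GC boxes in capitals.
COL27A1, chr9:114155287-114155536: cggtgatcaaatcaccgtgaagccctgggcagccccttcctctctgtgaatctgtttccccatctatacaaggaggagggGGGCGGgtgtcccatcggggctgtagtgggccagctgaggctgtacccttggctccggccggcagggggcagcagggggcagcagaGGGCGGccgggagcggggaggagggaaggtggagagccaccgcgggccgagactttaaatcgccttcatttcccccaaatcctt
COL5A1, chr9:134641553-134641802: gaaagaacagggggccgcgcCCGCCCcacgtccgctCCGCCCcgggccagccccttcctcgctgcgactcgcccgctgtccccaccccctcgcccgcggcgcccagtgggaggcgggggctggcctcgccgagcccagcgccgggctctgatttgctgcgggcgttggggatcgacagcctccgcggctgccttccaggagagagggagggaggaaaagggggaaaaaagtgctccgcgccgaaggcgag

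Both genes lie on the plus strand of chromosome 9. Each stretch holds 2 GC boxes, no CCAAT box and no GAANNTTC. The GC content is 64.4% for COL27A1 and 74% for COL5A1. Over all windows of 300 bases the median GC content was 58.7%, and over those of the collagen chain genes it was 64.8%.

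COL27A1 (ENSG00000196739.14, chr9:114155560-114312511) had 309 and 356 counts in WT cells and 1893 and 1531 counts in HSF1-pLVX cells, or 16.5 and 19.2 CPM against 75.4 and 77.1 CPM. The HSF1-pLVX libraries lay far above the WT libraries and close to each other. The log2 fold change was 2.10 (SE 0.112, adjusted p = 4.59e-76, quasi-likelihood test of edgeR), and it stayed between 2.01 and 2.21 when any 1 library was left out. Per exon length, COL27A1 went from 1.27 ± 0.136 to 5.45 ± 0.0841 CPM per kb (mean ± SD, n = 2 each) and it was the most abundant fibrillar chain transcript in each of the 4 libraries.

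COL2A1 (ENSG00000139219.17, chr12:47972965-48004486) had 3 and 2 counts in WT cells and 122 and 109 counts in HSF1-pLVX cells. The summed counts, scaled to library totals, were 38.4 times higher in HSF1-pLVX cells, with an exact 95% interval of 16.2 to 119 that reflects the few WT counts. The adjusted p was 3.94e-33 in the quasi-likelihood test of edgeR at a fitted log2 fold change of 5.21 (SE 0.425). Chondrocyte markers were examined beside it. Of 5 such markers 3 were tested, none rose, and SOX9, the transcription factor that drives COL2A1 in cartilage, fell with a log2 fold change of -1.317. Among all tested genes 32.5% rose and 32.7% fell. The markers summed to 140.4 and 170.0 CPM in WT cells and to 72.02 and 56.5 CPM in HSF1-pLVX cells, mostly through SOX9. MATN3 and CHAD, the other tested markers, were not called. ACAN, the main cartilage proteoglycan, had 4, 6, 3 and 3 counts.

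COL5A1 (ENSG00000130635.15, chr9:134641774-134844843) had 93 and 110 counts in WT cells and 4 and 3 counts in HSF1-pLVX cells. Its summed counts were 34.9 times higher in WT cells after scaling (exact 95% interval 16.6 to 87.9), and the fitted log2 fold change was -5.06 (SE 0.400, adjusted p = 2.95e-35, quasi-likelihood test of edgeR). COL5A2 (ENSG00000204262.11, chr2:189031896-189179879), its partner in type V collagen, had 129 and 127 counts in WT cells and 130 and 123 counts in HSF1-pLVX cells. In CPM it was at 6.87 and 6.84 against 5.18 and 6.19, a log2 fold change of -0.28 (SE 0.189) that did not pass the test (adjusted p = 0.192, quasi-likelihood test of edgeR). The ratio of COL5A1 to COL5A2 per exon length thus went from 0.461 and 0.554 to 0.0197 and 0.0156.

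COL5A3 (ENSG00000080573.6, chr19:9959561-10010471), the least abundant type V chain, had 4 and 7 counts in WT cells and 22 and 11 counts in HSF1-pLVX cells. It was called higher with a log2 fold change of 1.27 (SE 0.537, adjusted p = 0.0289, quasi-likelihood test of edgeR). The call was lost without WT replicate 1 (log2 fold change 0.96, adjusted p = 0.146) and without HSF1-pLVX replicate 1 (0.90, adjusted p = 0.217), and DESeq2's Wald test gave an adjusted p of 0.386.

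COL1A1 (ENSG00000108821.13, chr17:50183289-50201632), a chain of type I collagen, had 7.19 and 10.4 CPM in WT cells and 10.7 and 9.21 CPM in HSF1-pLVX cells. The groups overlapped and the log2 fold change was 0.20 (SE 0.165, adjusted p = 0.287, quasi-likelihood test of edgeR). Without WT replicate 2 it was 0.47 and called (adjusted p = 0.0258), and without WT replicate 1 it was -0.04. Its partner COL1A2 had 1, 0, 1 and 0 counts in WT replicates 1 and 2 and HSF1-pLVX replicates 1 and 2, so COL1A1 was present nearly without the second chain of type I collagen in both variants. COL3A1 had 1, 1, 0 and 0 counts, COL11A1 had 1 count in HSF1-pLVX replicate 1, and COL24A1 had none. A count of 0 allows up to 3 counts in a library. COL11A2 also had 0 counts in all libraries, but so did TUBB, FLOT1 and CSNK2B, which all cells use and which lie in the same region of chromosome 6. The zeros of COL11A2 are therefore not read as absence.

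Markers of fibroblasts and of vessel cells, which make many of these chains, were examined beside them. Of 10 fibroblast markers 4 were tested, of which 2 rose and 2 fell, beside 32.5% higher and 32.7% lower of all tested genes. The 10 markers summed to 310 and 343 CPM in WT cells and to 64.8 and 54.0 CPM in HSF1-pLVX cells. DCN and S100A4 rose. FAP fell from 204 ± 17.6 to 39.9 ± 6.98 CPM and MFAP5 from 114 ± 5.86 to 1.89 ± 0.538 CPM (mean ± SD, n = 2 each). DPT and TCF21 had 0 counts in every library and LUM had 1 count in HSF1-pLVX replicate 2. Of 6 endothelial and pericyte markers 2 were tested, of which 1 rose and 1 fell, and they summed to 311 and 308 CPM in WT cells and to 71.5 and 60.7 CPM in HSF1-pLVX cells, mostly through MCAM. The part of such cells in the level of any collagen chain was not tested.

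**Figure D4:**
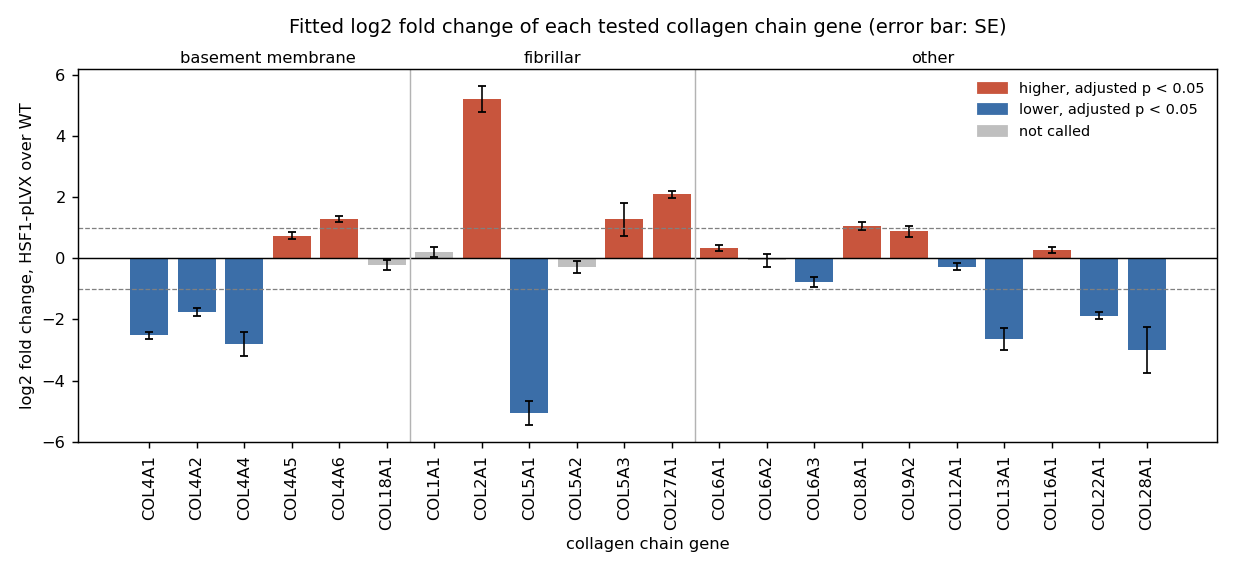
Fitted log2 fold change of HSF1-pLVX over WT cells for the 22 tested collagen chain genes, with dashed lines at 2-fold (red, higher; blue, lower; grey, not called at an adjusted p of 0.05). Error bars are 1 SE, back-calculated from the test statistic. COL2A1 at 5.21 and COL27A1 at 2.10 stand opposite COL5A1 at -5.06, and COL4A5 and COL4A6 opposite COL4A1, COL4A2 and COL4A4.

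The other collagens comprised 23 genes, of which 10 were tested, 4 rose, 5 fell and 1 was not called, with a median log2 fold change of -0.17. At least 2-fold changes were seen in COL8A1, which rose, and in COL13A1, COL22A1 and COL28A1, which fell. Over all tested genes 32.5% rose (14.9% at least 2-fold) and 32.7% fell (14% at least 2-fold).

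Type VI collagen forms beaded filaments next to basement membranes from chains of COL6A1, COL6A2 and a longer chain such as that of COL6A3. COL6A1 (chr21:45981737-46005050) had 29.5 and 26.7 CPM in WT cells and 34.5 and 36.6 CPM in HSF1-pLVX cells, a log2 fold change of 0.34 (SE 0.113, adjusted p = 0.00490, quasi-likelihood test of edgeR). COL6A2 (chr21:46098097-46132849) had 5.49 and 5.81 CPM against 5.10 and 5.69 CPM, with overlapping groups and a log2 fold change of -0.07 (SE 0.199, adjusted p = 0.776). COL6A3 (chr2:237324003-237414375) had 9.54 and 16.2 CPM in WT cells and 8.25 and 6.49 CPM in HSF1-pLVX cells, a fall of 0.76 on the log2 scale (SE 0.163, adjusted p = 8.19e-06). WT replicate 2 was far above the other libraries for COL6A3, and without it the log2 fold change was -0.36 (adjusted p = 0.0970). The COL6A3 call was also lost without HSF1-pLVX replicate 2 (-0.63, adjusted p = 0.208), and that of COL6A1 was lost without the same library (0.31, adjusted p = 0.0938) and by DESeq2's Wald test (adjusted p = 0.147). The ratio of COL6A1 to COL6A2 per exon length was 5.42 and 4.63 in WT cells and 6.83 and 6.49 in HSF1-pLVX cells, and that of COL6A1 to COL6A3 was 11.4 and 6.06 against 15.4 and 20.7. COL6A5 had no counts and COL6A6 had 0, 2, 1 and 0.

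The short-chain collagen gene COL8A1 (ENSG00000144810.15, chr3:99638475-99799226), whose product forms hexagonal networks in vessel walls and under the corneal endothelium, had 20.7 and 14.2 CPM in WT cells and 40.3 and 32.2 CPM in HSF1-pLVX cells. The replicates of each variant differed clearly, but both HSF1-pLVX libraries were above both WT libraries. It rose by a log2 fold change of 1.06 (SE 0.119, adjusted p = 4.09e-18, quasi-likelihood test of edgeR). The rise was below 2-fold without WT replicate 2 (0.81) and without HSF1-pLVX replicate 1 (0.88). Its relative COL8A2 had 6, 6, 9 and 7 counts, and COL10A1, the collagen of hypertrophic cartilage, had 1, 1, 1 and 3. Neither was tested.

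FACITs, the collagens that sit on the surface of fibrils, moved in both directions. COL22A1 (ENSG00000169436.16, chr8:138588235-138914006), known from tissue junctions such as that of muscle and tendon, had 729 and 858 counts in WT cells and 322 and 202 counts in HSF1-pLVX cells. In CPM these were 38.8 and 46.2 against 12.8 and 10.2, and the log2 fold change was -1.88 (SE 0.123, adjusted p = 6.57e-51, quasi-likelihood test of edgeR). COL9A2 (ENSG00000049089.13, chr1:40300487-40317816), a chain of cartilage type IX collagen, had 5.01 and 5.11 CPM in WT cells and 10.5 and 8.26 CPM in HSF1-pLVX cells. It rose by a log2 fold change of 0.89 (SE 0.183, adjusted p = 3.58e-06), while its partners stayed at or near 0, with no counts of COL9A1 and 0, 0, 4 and 2 counts of COL9A3.

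COL12A1 (chr6:75084326-75206051) and COL16A1 (chr1:31652247-31704319) had the highest mean levels per exon length among the FACITs of HSF1-pLVX and of WT cells. COL12A1 had 87.2 and 72.6 CPM in WT cells and 64.3 and 67.95 CPM in HSF1-pLVX cells, and its log2 fold change of -0.27 (SE 0.102, adjusted p = 0.0143, quasi-likelihood test of edgeR) was small. This call was lost without WT replicate 1 (-0.11, adjusted p = 0.366), without HSF1-pLVX replicate 1 (-0.23, adjusted p = 0.103) and without HSF1-pLVX replicate 2 (-0.31, adjusted p = 0.167), and also with library size as the only normalization (adjusted p = 0.0988) and by DESeq2's Wald test (adjusted p = 0.151). COL16A1 had 52.9 and 56.6 CPM in WT cells and 65.0 and 67.8 CPM in HSF1-pLVX cells, a log2 fold change of 0.28 (SE 0.102, adjusted p = 0.0112), which was not called without HSF1-pLVX replicate 2 (0.26, adjusted p = 0.0835) or by DESeq2's Wald test (adjusted p = 0.156). COL14A1 had no counts. COL19A1 and COL20A1 each had 1 count in HSF1-pLVX replicate 2, and COL21A1 had 1, 1, 2 and 0 counts.

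Of the transmembrane collagens, COL13A1 (ENSG00000197467.13, chr10:69801931-69964275), a component of cell adhesion sites and the neuromuscular junction, had 47 and 65 counts in WT cells and 12 and 9 counts in HSF1-pLVX cells. It fell by 2.64 on the log2 scale (SE 0.369, adjusted p = 4.20e-12, quasi-likelihood test of edgeR), and both HSF1-pLVX libraries were far below both WT libraries. COL23A1 had 1 count in HSF1-pLVX replicate 2 and COL25A1 had none. COL28A1 (ENSG00000215018.9, chr7:7356203-7535853) had 11 and 10 counts in WT cells and 3 and 0 counts in HSF1-pLVX cells. The scaled WT counts of COL28A1 were 8.43 times those of HSF1-pLVX cells (exact 95% interval 2.52 to 44.1), with an adjusted p of 0.000144 in the quasi-likelihood test of edgeR and 0.0695 in DESeq2's Wald test. Without HSF1-pLVX replicate 2 its fitted log2 fold change was -2.17, and without HSF1-pLVX replicate 1 no HSF1-pLVX counts remained and no fold is given. COL26A1 had no counts.

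The study called a gene where the ratio of its normalized values exceeded 2 or fell under 0.5 within each replicate number. By this rule COL2A1, COL4A6 and COL27A1 were higher, where 5% of all 22321 rows were. Lower were COL4A1, COL4A2, COL4A4, COL5A1, COL13A1, COL15A1 and COL22A1, where 6.42% of all rows were.

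Genes that act on collagen chains were examined by lists, each read against the same background of 32.5% higher and 32.7% lower. Among the enzymes that hydroxylate and glycosylate prolines and lysines of collagen, 13 were tested, 8 rose and 3 fell, with a median log2 fold change of 0.31. The prolyl 3-hydroxylase P3H2, which acts mainly on type IV collagen, rose from 85.5 ± 7.71 to 245 ± 36.7 CPM (mean ± SD, n = 2 each), and its log2 fold change was 1.51. CRTAP, a partner of a prolyl 3-hydroxylase, rose by 1.131, the lysyl hydroxylase PLOD1 by 1.05 and the prolyl 4-hydroxylase subunit P4HA1 by 0.90 on the log2 scale.

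In the list of collagen folding and export, 13 were tested, 4 rose and 5 fell. SERPINH1, the collagen-specific chaperone HSP47 and a known heat shock gene, rose from 156 ± 1.25 to 327 ± 4.80 CPM (mean ± SD, n = 2 each), with a log2 fold change of 1.06. FKBP10, another chaperone of the endoplasmic reticulum, rose by 1.30. The coat protein gene SEC13 fell by 0.81. The list also holds TANGO2, for which no action on collagen is assumed here, and it fell by 0.94 and is counted among the 5. Among 6 tested genes of propeptide processing, 2 rose and 2 fell. ADAMTS14, which removes the N-propeptides of fibrillar collagens, fell from 36.2 ± 13.1 to 1.05 ± 0.0152 CPM and BMP1, which removes the C-propeptides, fell by 0.95 on the log2 scale. The BMP1 relative TLL1 rose by 2.44 and the enhancer PCOLCE by 1.58, both from few counts, since TLL1 had 23 and 7 counts in WT cells and PCOLCE had 21 and 35.

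Among 6 tested cross-linking enzymes, 2 rose and 2 fell. LOXL2, a lysyl oxidase that cross-links type IV collagen, rose from 28.3 ± 3.09 to 190.0 ± 2.24 CPM (mean ± SD, n = 2 each), and its log2 fold change was 2.75. PXDN, the peroxidase that forms the sulfilimine bonds of type IV collagen, fell from 498 ± 1.30 to 207 ± 7.63 CPM (log2 fold change -1.26). LOX rose by 0.87 and the transglutaminase gene TGM2 fell by 3.13 on the log2 scale. Of 6 tested receptor genes 2 rose and 2 fell. The integrin chain genes ITGA10 and ITGA1 rose by 2.93 and 1.27, while ITGA2 fell by 1.39 and ITGB1 fell by 0.71. The receptor gene DDR1 had 0, 0, 0 and 2 counts and lies in the same region of chromosome 6 as TUBB, so its zeros are not read as absence either.

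Partners of collagen in the basement membrane were tested for 12 genes, of which 6 rose and 5 fell. The nidogen gene NID2, whose product links laminin to type IV collagen, had 1152 and 1115 counts in WT cells and 9 and 6 counts in HSF1-pLVX cells, a log2 fold change of -7.48. Laminin chain genes moved both ways, as LAMA2 fell by 3.28 and LAMA1 and LAMA4 rose by 1.93 and 1.16. Among 10 tested genes of collagen degradation, 3 rose and 4 fell. MMP7 rose by 2.94 and MMP9 by 2.27 on the log2 scale, whereas MMP2, a gelatinase that cleaves type IV collagen as MMP9 does, fell by 1.95 and MMP15 fell by 1.80. All 6 tested genes of fibril-binding proteoglycans and glycoproteins were called, of which 2 rose and 4 fell. DCN, which had 1 and 3 counts in WT cells and 94 and 87 counts in HSF1-pLVX cells, and BGN rose, while FN1 fell by 2.39 and THBS1 fell by 3.25. All changes named for these lists passed the quasi-likelihood test of edgeR, with the largest adjusted p, 1.83e-05, for ITGB1.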

How the data were processed

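RNA-seq libraries of 2 WT and 2 HSF1-pLVX MCF10A samples, grouped and numbered by their labels, were analysed from the authors' files. Per the submitters' processing notes and methods, the authors used HISAT2 2.0.5 against hg38, SAMtools 1.13 and, for counting reads per gene, featureCounts 1.6.5. The deposited counts are raw and cover 63856 genes. Strand, overlap and multi-mapping settings are not given in the sources used here. The authors' second file holds log2-like values made with DESeq2 1.32.0, and it was used for the members' symbols and for the ratio rule. All 42 collagen symbols were matched to Ensembl identifiers by symbol and checked against the transformed counts. The members and gene lists were chosen with earlier results of these data known.

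Genes were compared by the quasi-likelihood test of edgeR 4.0.16 (R 4.3.3) after TMM normalization and filterByExpr at its defaults. Replicate number was a block, p-values were adjusted over 15830 tested genes by the Benjamini-Hochberg method, and genes were called at 0.05. The block was used because the study takes ratios within replicate number. No source used here ties a number to a common culture or day, and deviations of same-numbered libraries from their group means correlated at -0.113 over 9672 genes above 8 CPM. With the block the prior degrees of freedom were infinite, so that very small p-values rest on the spread of other, similarly expressed genes. Each SE was back-calculated as the absolute log2 fold change over the square root of the F statistic of the test. It therefore carries that same spread and not that of the gene alone. CPM per kb is CPM divided by the summed exon length in the count table. Ratios of summed counts have exact binomial intervals. Replicates differed by more than sampling noise, with a chi-square of 7.34 per degree of freedom in WT and 9.02 in HSF1-pLVX cells. Every member is named. From each list of related genes up to 4 called genes are named, those with the largest absolute log2 fold change and at least 50 counts in each library of the higher group. DESeq2 1.42.0, other normalizations and filters, no block and each library left out in turn were the alternatives. Fits without 1 library had no block, and the lone library of a group was then assumed to vary like the others. The test was tried on simulated counts.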

Additional observations from a re-analysis of the deposited data

How the results depend on the processing

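Over the alternatives, HSF1 kept a log2 fold change between 2.31 and 2.43. For the 22 tested collagen chain genes, 258 alternative values were computed, of which 234 kept direction and side of the threshold, 20 lost a call, 1 gained one and 3 changed sign. The lost calls were those of COL5A3, COL6A1, COL6A3, COL12A1, COL16A1 and COL28A1, and the one gained was that of COL1A1 without WT replicate 2. By setting, 5 calls were lost by DESeq2's Wald test, 3 with no filter, 2 with library size only and 1 with upper quartile normalization. The rest were lost with 1 library left out. The changes of sign were COL1A1 without WT replicate 1 and COL6A2 with upper quartile normalization (0.017, a value at which COL6A2 was not called) and without HSF1-pLVX replicate 1. With 1 library left out, COL1A1 lay between -0.035 and 0.47 and COL6A2 between -0.14 and 0.0098. The number of collagen chain genes at least 2-fold higher was 5 and became 3 with at least 10 counts required in every library, and it lay between 3 and 6 with 1 library left out. With the same requirement of 10 counts, the number lower went from 9 to 5 and the number at least 2-fold lower from 7 to 3, because genes with few counts in HSF1-pLVX cells were then no longer tested. That requirement left 16 collagen chain genes and 13868 genes of the whole table to be tested. DESeq2's Wald test called 3318 genes of the whole table higher, against 5138 in edgeR, and the cause was not tested. It called 6 collagen chain genes higher and 7 lower, against 9 and 9, losing COL5A3, COL6A1, COL12A1, COL16A1 and COL28A1. The median log2 fold change of the basement membrane chains, -0.998, was -0.94 with library size only, -0.91 with upper quartile, -1.89 with no filter and -0.22 with 10 counts in every library. That of the fibrillar chains, 0.74, was 0.19 with no filter, 0.21 with 10 counts in every library and between 0.46 and 1.11 with 1 library left out. That of the other collagens, -0.17, changed sign to 0.21 with no filter and 0.12 with 10 counts in every library, settings that change which genes enter the median. Upper quartile normalization moved the median of all genes to 0.11. The ratio rule with limits of 1.5 and 0.67 was passed upwards by 7 collagen chain genes in place of 3. The share of all rows past these wider limits was not computed, so the 7 cannot be set against a background. Without scaling by length, the mean ratio was 0.467 in WT and 0.278 in HSF1-pLVX cells for COL4A1 to COL4A2, 0.794 and 0.0276 for COL5A1 to COL5A2, and 2.37 and 4.91 for COL6A1 to COL6A3, and in HSF1-pLVX cells it was 0.781 for COL4A5 to COL4A6 and 0.414 for COL4A3 to COL4A4.

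With no replicate block, the fit called the same 9 collagen chain genes higher and the same 9 lower, and the log2 fold change of HSF1 was 2.35. In the quasi-likelihood test of edgeR, that fit gave an adjusted p of 2.96e-11 for COL4A1 and 2.44e-08 for COL2A1. With the block these were 4.37e-103 and 3.94e-33. The replicate numbers are not known to pair the libraries. With crossed pairing, added after seeing the data, 5429 genes of the whole table were called higher and 5487 lower, against 5138 and 5171. Members with few counts limit the depth of the comparison, since 20 of the 42 genes could not be tested.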
